A study of Mus musculus with 8 samples.

Results

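The large subunit of the ribosome is built in the nucleolus by assembly factors, proteins that bind the precursor of the ribosomal RNA, fold and process it, and leave before the subunit is finished. The 47 genes described here encode such factors of the large (pre-60S) subunit and were taken by symbol from the 54838 genes of the count table. All 47 were found there and all 47 passed the filter on low counts. RNA was profiled in acute myeloid leukaemia (AML) cells of the RUNX1-RUNX1T1 genotype on a C57BL/6 background, a leukaemia driven by a core-binding factor fusion and carried from mouse to mouse by transplantation into Ptprca recipients, which per the labels had been sublethally irradiated, whereas the methods of the study name irradiation for its other leukaemia models. The Vehicle group had 4 samples and the AG636 group 4. AG636 is an inhibitor of the pyrimidine synthesis enzyme DHODH and was dosed orally b.i.d. at 100 mg/kg for 1 day. Cells positive for cKit and lacking CD11b were sorted from bone marrow and spleen. The results text of the study instead describes the sorted cells of this model as high for cKit. The labels do not say which tissue each sample came from or whether each is a separate mouse, and the legend of the study gives fewer mice than samples, so that p-values measure the spread between these samples only. The transplanted cells had been frozen from the spleen or marrow of a leukaemic mouse, so that both groups share the fusion and its background and the samples are not independent leukaemias.

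Assembly of the large subunit begins on the nascent transcript of RNA polymerase I. Early factors compact the particle in the nucleolus, GTPases, RNA helicases and AAA ATPases then remodel it and release factors, and export and late factors take it through the nuclear pore and hold it inactive in the cytoplasm until the last ribosomal proteins are placed. Rapidly dividing cells make many ribosomes, and many genes of this pathway are known targets of Myc.

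The samples held 6120030 to 7162036 counts, and 16141 to 18049 genes had at least 1 count. Both measures and the mitochondrial and Gm42418 shares of the counts overlapped between the groups (two-sided exact permutation tests, smallest p = 0.0571, adjusted p = 0.229 over 4 measures). No 2 samples of a group agreed within sampling noise. The labelled cell type was compared with its markers. Kit, the sort marker, had 1022 to 1580 counts in each sample, but the granule gene Mpo had 3 to 33, Elane 2 to 30, and Ptprc, which encodes the pan-leucocyte antigen CD45, 13 to 64. Erythroid genes were abundant, with 15955 to 25961 counts of Car1. The 9 AML and progenitor markers, of which 6 were tested, together took 182 to 207 CPM (counts scaled to a common library size) in Vehicle and 215 to 322 in AG636. Most of this was Kit, with 155 to 177 CPM in Vehicle and 153 to 252 in AG636 under TMM scaling, and its groups overlapped. Of the 6 tested, 1 had a negative log2 fold change, Mpo (−0.83), and 0 passed the threshold given below. The smallest p were those of Runx1t1 (log2 fold change 0.57, SE 0.22, adjusted p = 0.112) and Kit (log2 fold change 0.31, SE 0.13, adjusted p = 0.142) in the limma-voom fit described next, and a gene passed its threshold at an adjusted p under 0.05. The 9 erythroid markers took 4535 to 8437 CPM in Vehicle and 7892 to 9289 in AG636. Among them the smallest p were those of Hbb-bt (log2 fold change 0.90, SE 0.22, adjusted p = 0.0238), which passed, and Slc4a1 (log2 fold change 1.58, SE 0.48, adjusted p = 0.0501), which did not. Hbb-bt had only 116 to 377 counts in each sample. The 8 T and NK cell markers summed to 2.86 to 10.1 CPM in Vehicle and 6.41 to 22.4 in AG636, the 8 B cell markers to 5.35 to 14.6 and 12.3 to 26.2, the 5 megakaryocyte markers to 11.9 to 17.5 and 12.9 to 62.4, and the 11 mature myeloid markers to 93.1 to 146 and 52.2 to 256. Gp1bb had 0 counts in every sample. Of these 4 lists 1 gene passed, Cd79a (log2 fold change 1.83, SE 0.47, adjusted p = 0.0266), at 2 to 22 counts, while Ebf1 (log2 fold change 1.06, SE 0.46, adjusted p = 0.151), Nkg7 (log2 fold change 0.12, SE 0.99, adjusted p = 0.948), Csf1r (log2 fold change 0.88, SE 0.40, adjusted p = 0.159), Camp (log2 fold change −0.65, SE 0.85, adjusted p = 0.651), Pf4 (log2 fold change 2.89, SE 1.06, adjusted p = 0.0943) and Itga2b (log2 fold change 0.26, SE 0.50, adjusted p = 0.764) had the next smallest p and did not. edgeR called 2 erythroid markers higher and DESeq2 3, against 1 in limma-voom, and both called 1 megakaryocyte marker higher, against 0. DESeq2 called 0 B cell markers and edgeR 1. The part of these cells in the results was not tested.

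To ask whether DHODH inhibition altered transcripts for large subunit assembly, each member was compared between AG636 and Vehicle in a limma-voom fit of all 10911 genes that passed the filter. A gene that passed the threshold, with p adjusted over all genes tested, is called here. Of the 47 members, 30 fell and 0 rose, a share of 63.8% called lower, while 8.49% of all genes tested were called lower and 5.47% higher. Log2 fold changes of the 30 called members lay between −1.03 for Gnl3, nucleostemin, and −0.42 for Wdr12. The median over all 47 was −0.53, against −0.0056 over all genes tested. In 34 members all 4 AG636 samples lay below all 4 Vehicle samples, against 12.9% of all genes tested, and 29 of these were called. No member was called higher by edgeR or DESeq2 either, and of the members with an unadjusted limma p under 0.05, 38 had negative values (80.9%, against 17.0% of all genes tested) and 0 positive ones. Values of 45 members were negative and of 2, Gnl3l and Nvl, positive, and neither of these passed. In CPM, here of the library size scaled by TMM factors, the 47 together made up 4580, 4548, 4660 and 4817 CPM in Vehicle samples 1 to 4 and 3229, 3133, 3171 and 3653 CPM in AG636 samples 1 to 4. In RNA from a pool of sorted cells, fewer cells of a type and less RNA per cell cannot be told apart.

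**Figure D1:**
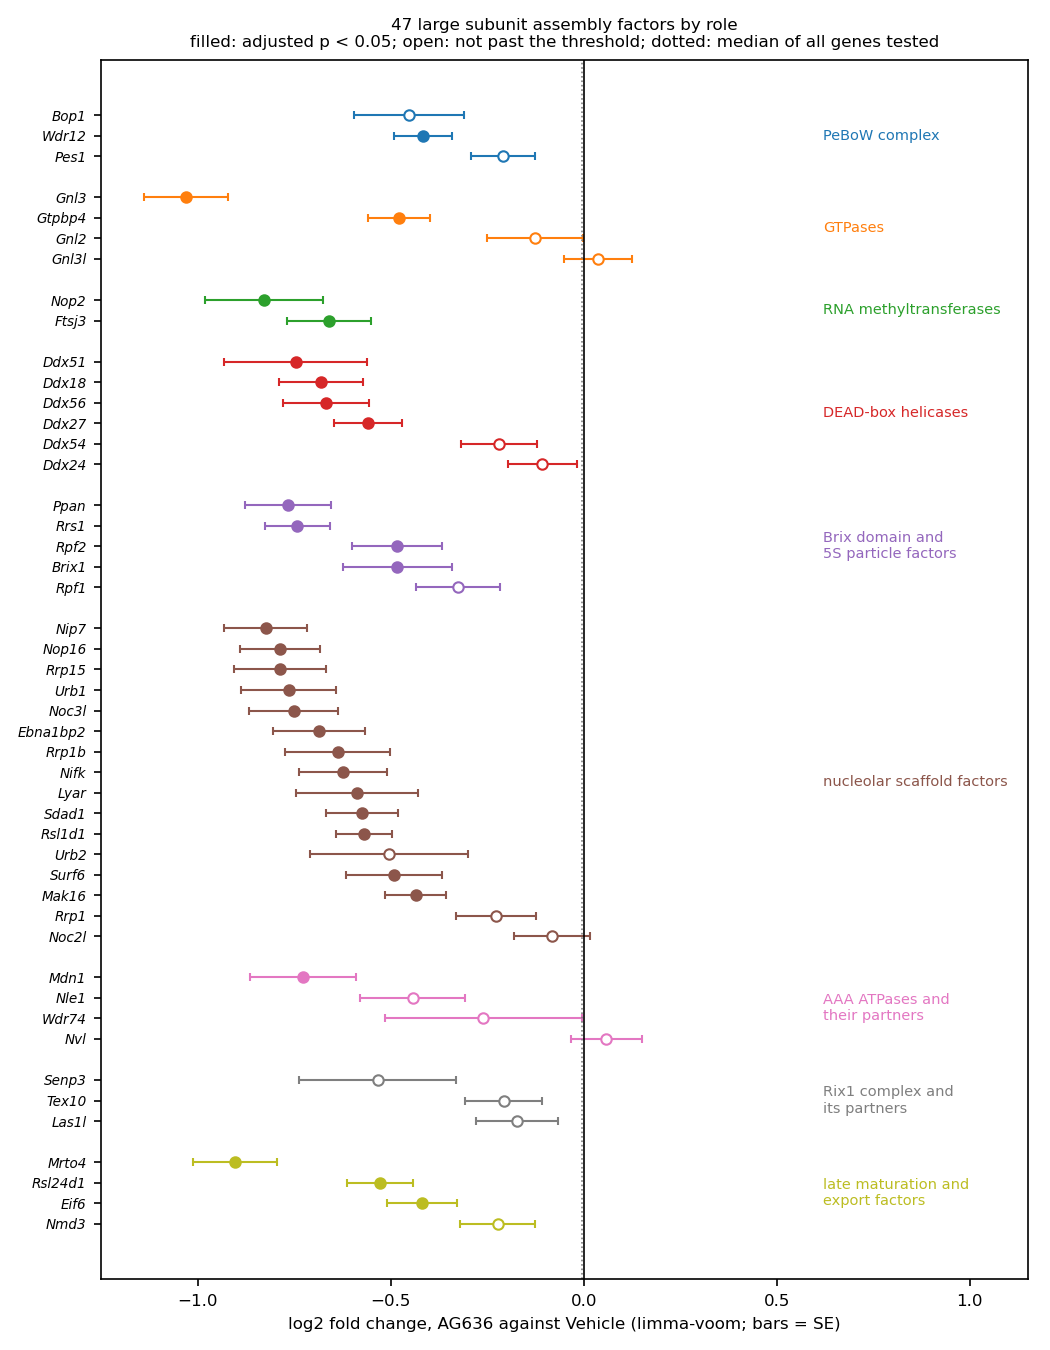
Log2 fold change of AG636 against Vehicle for each of the 47 genes (x axis, limma-voom, bars are SE, 4 samples a group), grouped and coloured by role, filled where called and open where not. Gnl3 lies farthest to the left at −1.03, and Gnl3l and Nvl lie to the right of 0.

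The stretch before the transcription start is shown for 4 members that span the range of responses, Gnl3 with the largest fall, Nop2 with a fall of 0.83 on the log2 scale, Nmd3, which was not called, and Nvl with the highest value. Sequences are RefSeq promoter windows of GRCm38.p6, the 150 bases directly before the annotated start, 5′ to 3′. Capitals mark letters of the motifs searched on both strands, the E-box CACGTG that Myc and its partners bind, AANATGGC of YY1, CCGGAAG of ETS factors and GCATGCGC of NRF1. Gnl3 lies at chr14:31019132-31019281, − strand, Nop2 at chr6:125131733-125131882, + strand, Nmd3 at chr3:69721905-69722054, + strand and Nvl at chr1:181144205-181144354, − strand.
Gnl3: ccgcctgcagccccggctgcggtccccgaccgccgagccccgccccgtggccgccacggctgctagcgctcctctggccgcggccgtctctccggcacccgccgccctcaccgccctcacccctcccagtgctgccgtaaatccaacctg
Nop2: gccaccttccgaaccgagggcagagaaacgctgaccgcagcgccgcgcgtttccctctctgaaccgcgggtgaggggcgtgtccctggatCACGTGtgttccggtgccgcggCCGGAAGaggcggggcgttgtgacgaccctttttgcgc
Nmd3: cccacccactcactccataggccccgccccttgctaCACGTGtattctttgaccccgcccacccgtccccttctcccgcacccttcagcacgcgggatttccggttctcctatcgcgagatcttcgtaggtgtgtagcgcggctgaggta
Nvl: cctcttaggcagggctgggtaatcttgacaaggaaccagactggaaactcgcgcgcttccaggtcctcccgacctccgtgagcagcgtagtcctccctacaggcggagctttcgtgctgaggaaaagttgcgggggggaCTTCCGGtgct
The Gnl3 stretch held none of the 4 motifs. An E-box stood 60 bases before the RefSeq start of Nop2, which was called, and 114 bases before that of Nmd3, which was not. In the annotation used for counting, Nop2 starts at 125131909, Nmd3 at 69721985 and Gnl3, on the − strand, at 31019152. By these starts the distances differ, and the Nmd3 and Gnl3 stretches run partly into the genes. The ETS letters stood 38 bases before the RefSeq start of Nop2 and, on the other strand, 11 bases before that of Nvl.

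Promoter windows of 300 bases, 250 before and 50 after the start, were at hand for 40 of the 47 members. The ETS letters occurred in the windows of 20 of the 40 (50%), against 23.1% of the 8148 tested genes with a window and 9.93% of all 27025 genes with one. In 2 related lists the share was 41.3% (19 of 46 small subunit factors) and 38.9% (14 of 36 large subunit ribosomal proteins). The E-box occurred in 8 (20%, against 12.1% of tested genes, 28.3% of small subunit factors and 13.9% of large subunit ribosomal proteins), the YY1 letters in 3 (7.5%, against 11.4%) and the NRF1 letters in 1 (2.5%, against 6.6%). Among the 27 called members with a window, 13 held the ETS letters and 4 an E-box, and among the 13 that were not called, 7 and 4 did. A match of letters is a description and not a bound site.

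The PeBoW complex of Pes1, Bop1 and Wdr12, which joins early particles and is needed to process the RNA of the large subunit, had negative values in all 3 genes, and 1 was called. Wdr12 had 134, 128, 131 and 126 CPM in Vehicle samples 1 to 4 and 96.1, 103, 97.02 and 92.8 CPM in AG636 samples 1 to 4 (log2 fold change −0.42, SE 0.07, adjusted p = 0.00639), and the lowest Vehicle sample stood above the highest AG636 sample. For Bop1 (log2 fold change −0.45, SE 0.14, adjusted p = 0.0575) and Pes1 (log2 fold change −0.21, SE 0.08, adjusted p = 0.114) the groups did not overlap either, with 38.5, 38.4, 39.2 and 45.8 CPM in Vehicle and 26.4, 23.3, 34.5 and 35.1 CPM in AG636 for Bop1 and 72.4, 70.2, 76.1 and 67.2 CPM in Vehicle and 58.8, 62.3, 65.3 and 61.1 CPM in AG636 for Pes1, but neither passed the threshold. Bop1 passed in 4 of 17 alternative fits.

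Of 4 GTPases that check and drive steps of particle maturation, 2 fell and 2 were not called. Gnl3, nucleostemin (ENSMUSG00000042354, chromosome 14, 31012433 to 31019152, − strand in GRCm38), had 353, 367, 358 and 397 CPM in Vehicle samples 1 to 4 and 198, 185, 145 and 199.9 CPM in AG636 samples 1 to 4 (log2 fold change −1.03, SE 0.11, adjusted p = 0.00127), the largest fall of any member. Gtpbp4, the counterpart of yeast Nog1, had 197, 178, 191 and 190.02 CPM in Vehicle and 137, 123, 139 and 143 CPM in AG636 (log2 fold change −0.48, SE 0.08, adjusted p = 0.00481). In both genes every AG636 sample lay below every Vehicle sample. Gnl2, a GTPase of the same family that acts before export, was not called (log2 fold change −0.13, SE 0.12, adjusted p = 0.533, 95% interval −0.40 to 0.15), and its highest and lowest samples were both in the AG636 group, at 134 and 89.4 CPM. Gnl3l, the paralog of nucleostemin, had 54.9, 50.1, 51.2 and 54.8 CPM in Vehicle and 55.1, 55.9, 49.1 and 56.5 CPM in AG636 (log2 fold change 0.04, SE 0.09, adjusted p = 0.812, 95% interval −0.16 to 0.23), and the groups overlapped.

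Both members grouped as RNA methyltransferases of the large subunit fell. Nop2, which places 5-methylcytosine (ENSMUSG00000038279, chromosome 6, 125131909 to 125144753, + strand), had 74.7, 68.2, 82.01 and 68.2 CPM in Vehicle samples 1 to 4 and 36.7, 38.6, 33.99 and 58.3 CPM in AG636 samples 1 to 4 (log2 fold change −0.83, SE 0.15, adjusted p = 0.00737). Ftsj3, which methylates ribose, had 139, 147, 139 and 150.01 CPM in Vehicle and 89.3, 85.6, 78.4 and 113 CPM in AG636 (log2 fold change −0.66, SE 0.11, adjusted p = 0.00481). In both, AG636 sample 4 was the highest of its group but stayed below every Vehicle sample.

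Of 6 DEAD-box helicases, which unwind RNA within the particle, 4 fell and 2 were not called. Ddx51, which releases a small nucleolar RNA from the precursor, had 23.5, 19.1, 24.6 and 30.3 CPM in Vehicle samples 1 to 4 and 14.6, 11.01, 14.04 and 18.1 CPM in AG636 samples 1 to 4 (log2 fold change −0.75, SE 0.19, adjusted p = 0.0241). Ddx18 had 84.6, 77.2, 88.2 and 101 CPM in Vehicle and 60.8, 49.8, 50.4 and 57.2 CPM in AG636 (log2 fold change −0.68, SE 0.11, adjusted p = 0.00438). Ddx56 had 43.7, 44.6, 46.9 and 52.2 CPM in Vehicle and 28.1, 31.6, 25.7 and 32.4 CPM in AG636 (log2 fold change −0.67, SE 0.11, adjusted p = 0.00481). In these 3 genes no AG636 sample reached the Vehicle range, but the call of Ddx51 was lost without Vehicle sample 1, 3 or 4 or AG636 sample 1 or 2, with adjusted p up to 0.0674. Ddx27 had 163, 166, 157 and 158 CPM in Vehicle and 115, 103, 97.02 and 122 CPM in AG636 (log2 fold change −0.56, SE 0.09, adjusted p = 0.00439), again without overlap. Ddx54 (log2 fold change −0.22, SE 0.10, adjusted p = 0.161) and Ddx24 (log2 fold change −0.11, SE 0.09, adjusted p = 0.455, 95% interval −0.30 to 0.09) overlapped between the groups, in both cases through AG636 sample 4, the highest AG636 sample, at 49.7 CPM for Ddx54 and 289 CPM for Ddx24.

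Brix1, Rpf1, Rpf2 and Ppan share the Brix domain, a fold that binds ribosomal RNA, and Rpf2 works with Rrs1 to bring the 5S RNA and its proteins into the particle. Of these 5 genes 4 fell. Ppan had 105, 94.7, 119.6 and 111 CPM in Vehicle samples 1 to 4 and 70.8, 67.04, 52.98 and 62.7 CPM in AG636 samples 1 to 4 (log2 fold change −0.77, SE 0.11, adjusted p = 0.00295). Rrs1 had 146, 141, 151 and 147 CPM in Vehicle and 76.7, 91.5, 91.6 and 91.5 CPM in AG636 (log2 fold change −0.74, SE 0.08, adjusted p = 0.00167), so that 3 AG636 samples were nearly equal and AG636 sample 1 was lower. Its partner Rpf2 had 84.1, 78.4, 86.8 and 89.5 CPM in Vehicle and 66.7, 47.6, 61.3 and 68.2 CPM in AG636 (log2 fold change −0.48, SE 0.12, adjusted p = 0.0214), a call lost without Vehicle sample 1, 3 or 4 (adjusted p up to 0.0674) or when scaled by library size alone (adjusted p = 0.0565). These 3 genes showed no overlap between groups. Brix1 had 94.7, 80.99, 94.9 and 109 CPM in Vehicle and 84.6, 52.2, 67.02 and 69.8 CPM in AG636 (log2 fold change −0.48, SE 0.14, adjusted p = 0.0459), and AG636 sample 1 lay above the lowest Vehicle sample. Its call was the least stable of the 30 and held in 6 of 18 fits. Rpf1 was not called (log2 fold change −0.33, SE 0.11, adjusted p = 0.0686), with 44.00 to 53.9 CPM in Vehicle and 33.7 to 42.5 CPM in AG636.

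The largest group, 16 factors listed here as nucleolar scaffold factors, held 13 called members, and all 16 values were negative. Nip7, which binds the precursor RNA (ENSMUSG00000031917, chromosome 8, 107056877 to 107060931, + strand), had 62.8, 64.5, 71.03 and 73.8 CPM in Vehicle samples 1 to 4 and 40.1, 33.8, 35.7 and 43.9 CPM in AG636 samples 1 to 4 (log2 fold change −0.82, SE 0.11, adjusted p = 0.00216). Nop16 had 81.00, 74.2, 93.5 and 79.3 CPM in Vehicle and 42.6, 46.9, 52.8 and 47.6 CPM in AG636 (log2 fold change −0.79, SE 0.10, adjusted p = 0.00216). Rrp15 had 41.8, 41.2, 47.04 and 48.99 CPM in Vehicle and 29.4, 26.5, 21.5 and 26.5 CPM in AG636 (log2 fold change −0.79, SE 0.12, adjusted p = 0.00387). In each of the 3 genes all AG636 samples were well below the Vehicle range. Urb1, a scaffold of the earliest particle, had 25.3, 26.9, 30.2 and 29.8 CPM in Vehicle and 16.95, 14.7, 15.6 and 18.5 CPM in AG636 (log2 fold change −0.76, SE 0.12, adjusted p = 0.00466). Noc3l, of the nucleolar complex family, had 31.5, 38.6, 37.8 and 35.4 CPM in Vehicle and 23.3, 18.99, 21.5 and 20.96 CPM in AG636 (log2 fold change −0.75, SE 0.12, adjusted p = 0.00404). Ebna1bp2, which takes part in early processing, had 124, 130.2, 141 and 148 CPM in Vehicle and 94.2, 71.8, 74.2 and 99.2 CPM in AG636 (log2 fold change −0.69, SE 0.12, adjusted p = 0.00565). AG636 sample 2 was the lowest sample in these 3 genes. Rrp1b, a nucleolar protein of the Rrp1 family, had 69.6, 65.6, 69.2 and 65.9 CPM in Vehicle and 36.2, 37.2, 45.3 and 57.4 CPM in AG636 (log2 fold change −0.64, SE 0.14, adjusted p = 0.0129), with AG636 sample 4 nearest to the Vehicle range.

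The remaining called members of this group fell by between 0.62 and 0.43 on the log2 scale. Nifk, which binds the proliferation antigen Ki-67, had 118, 129, 139 and 142 CPM in Vehicle and 94.4, 70.1, 82.5 and 96.99 CPM in AG636 (log2 fold change −0.62, SE 0.11, adjusted p = 0.00705). Sdad1, a factor of export, had 140.3, 138, 146 and 124 CPM in Vehicle and 86.8, 84.3, 93.4 and 105 CPM in AG636 (log2 fold change −0.57, SE 0.09, adjusted p = 0.00472). Rsl1d1, with a domain of a ribosomal protein, had 347, 336, 335 and 363 CPM in Vehicle and 235, 222, 229 and 244 CPM in AG636 (log2 fold change −0.57, SE 0.07, adjusted p = 0.00195). The SE of Rsl1d1 was the smallest of the 47. Lyar, a nucleolar zinc finger protein, had 163, 165, 175 and 207 CPM in Vehicle and 100.2, 90.98, 137 and 152 CPM in AG636 (log2 fold change −0.59, SE 0.16, adjusted p = 0.033). Surf6, a nucleolar matrix protein, had 40.1, 35.96, 42.2 and 40.9 CPM in Vehicle and 32.8, 28.7, 22.7 and 29.6 CPM in AG636 (log2 fold change −0.49, SE 0.12, adjusted p = 0.0257). Mak16 had 118, 111, 114 and 125 CPM in Vehicle and 88.2, 87.3, 81.1 and 88.8 CPM in AG636 (log2 fold change −0.43, SE 0.08, adjusted p = 0.00671). No AG636 sample reached the Vehicle range in these 6, but Lyar lost its call without any single Vehicle sample or AG636 sample 1 or 2, and Surf6 without Vehicle sample 1, 3 or 4, with adjusted p up to 0.0891 and 0.0806. Scaling by library size alone also lost the calls of Lyar (adjusted p = 0.065) and Surf6 (0.052). With no filter the call of Surf6 was lost as well (0.057). Urb2, the partner of Urb1, was counted at 7.82 to 16.3 CPM and was not called (log2 fold change −0.50, SE 0.20, adjusted p = 0.124). Neither were Rrp1 (log2 fold change −0.23, SE 0.10, adjusted p = 0.167) and Noc2l (log2 fold change −0.08, SE 0.10, adjusted p = 0.612, 95% interval −0.30 to 0.13), in which AG636 sample 4 stood at 127 and 188 CPM.

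The AAA ATPases Mdn1 and Nvl pull factors off the particle, and Nle1 and Wdr74 are their respective partners. Mdn1, a very large motor protein, had 113, 139, 115 and 123 CPM in Vehicle samples 1 to 4 and 57.5, 74.1, 72.9 and 94.4 CPM in AG636 samples 1 to 4 (log2 fold change −0.73, SE 0.14, adjusted p = 0.00789), without overlap. Nle1, the factor that Mdn1 releases, was not called (log2 fold change −0.44, SE 0.14, adjusted p = 0.0532), although every AG636 sample (up to 15.96 CPM) lay below every Vehicle sample (from 17.9 CPM). Nvl (ENSMUSG00000026516, chromosome 1, 181087138 to 181144204, − strand) had 72.4, 81.8, 70.6 and 78.05 CPM in Vehicle and 70.1, 82.5, 78.7 and 84.1 CPM in AG636 (log2 fold change 0.06, SE 0.09, adjusted p = 0.708, 95% interval −0.14 to 0.26), and the groups overlapped. Wdr74 had only 245 counts in all 8 samples together and was not called (log2 fold change −0.26, SE 0.26, adjusted p = 0.533, 95% interval −0.82 to 0.30), an interval that holds both 0 and the values of most called members.

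The Rix1 complex and the enzymes around it cut the spacer RNA and prepare the particle for release from the nucleolus. None of its 3 members was called by limma-voom, or in any of the 17 alternative fits, and 1 of the 3 had an unadjusted p under 0.05. Senp3, a SUMO protease, had 20.5, 14.8, 13.5 and 12.2 CPM in Vehicle samples 1 to 4 and 10.1, 12.5, 11.2 and 8.24 CPM in AG636 samples 1 to 4 (log2 fold change −0.53, SE 0.20, adjusted p = 0.104). Vehicle sample 1 was the highest, and Vehicle sample 4 lay below AG636 sample 2. Tex10, a partner of Pelp1 in the complex (log2 fold change −0.21, SE 0.10, adjusted p = 0.185) and Las1l, the endonuclease (log2 fold change −0.17, SE 0.11, adjusted p = 0.303, 95% interval −0.41 to 0.06), also overlapped between groups.

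Of 4 factors that act late, 3 fell, and in all 4 the groups did not overlap. Mrto4 (ENSMUSG00000028741, chromosome 4, 139347435 to 139352576, − strand), which holds the place of the ribosomal stalk protein, had 67.2, 65.01, 58.6 and 77.1 CPM in Vehicle samples 1 to 4 and 37.8, 32.2, 35.9 and 36.7 CPM in AG636 samples 1 to 4 (log2 fold change −0.90, SE 0.11, adjusted p = 0.00178), the second largest fall of the 47. Rsl24d1, which holds the place of ribosomal protein Rpl24, had 82.02, 84.1, 93.6 and 89.3 CPM in Vehicle and 62.5, 58.7, 64.3 and 56.7 CPM in AG636 (log2 fold change −0.53, SE 0.09, adjusted p = 0.00466). Eif6, which keeps the large subunit from joining the small one too early, had 84.6, 93.1, 90.8 and 94.6 CPM in Vehicle and 63.8, 61.6, 73.2 and 73.6 CPM in AG636 (log2 fold change −0.42, SE 0.09, adjusted p = 0.0139). Nmd3, the adaptor that links the particle to the export receptor, was not called (log2 fold change −0.22, SE 0.10, adjusted p = 0.15), with 45.2, 39.96, 39.00 and 39.1 CPM in Vehicle and 38.3, 34.2, 33.2 and 34.3 CPM in AG636.

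Most members were low in each AG636 sample. Against the mean of the Vehicle samples, the median difference in log2 CPM over the 47 members was −0.51 in AG636 sample 1, −0.67 in sample 2, −0.49 in sample 3 and −0.39 in sample 4. Over all genes tested these medians lay between −0.012 and 0.0047. In AG636 samples 1, 2 and 3, 42 or 43 of the 47 members were below every Vehicle sample, and in sample 4 there were 39, against 31.3 to 35.5% of all genes tested. AG636 sample 4 held the highest AG636 value in 28 of the 47 members and the lowest in 3, while sample 2 held the lowest in 19. Each Vehicle sample set against the other 3 had a median between −0.069 and 0.062.

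**Figure D2:**
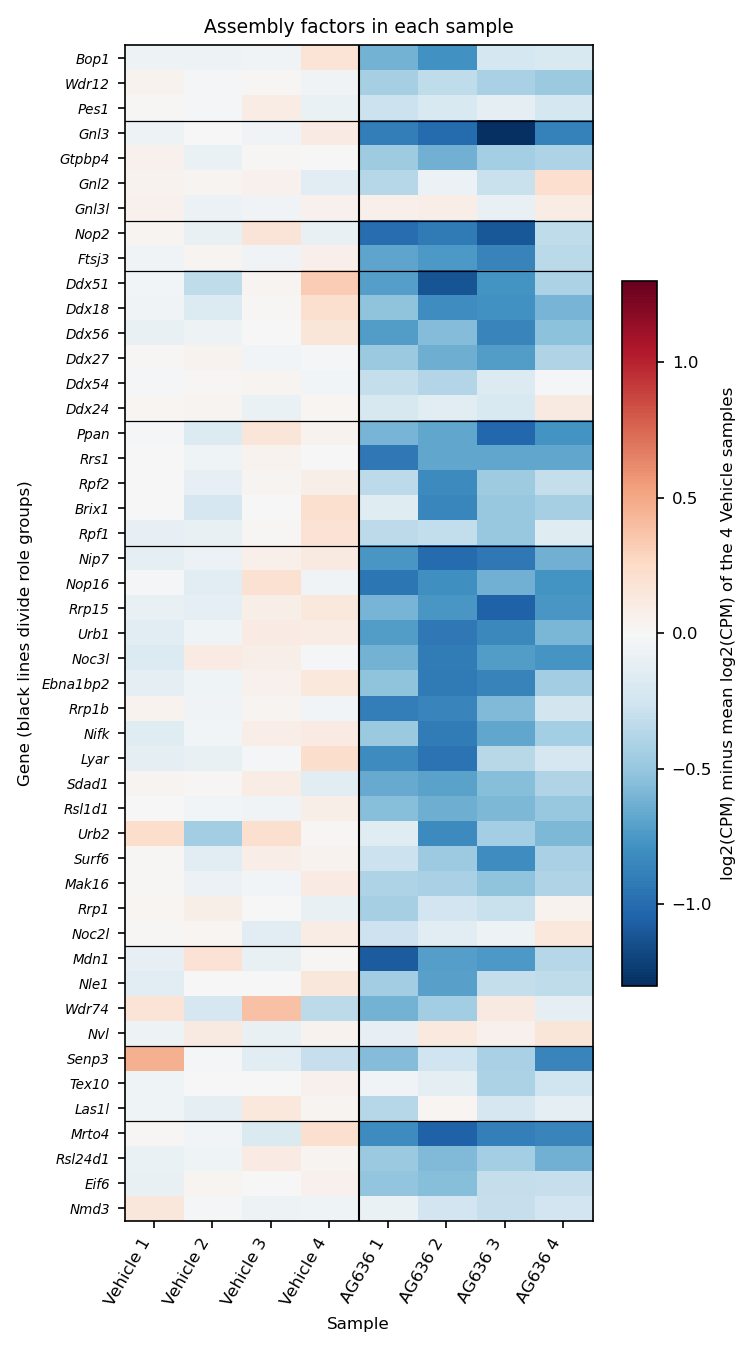
Each of the 47 genes (rows, black lines divide the role groups) in each of the 8 samples (columns), coloured by log2 CPM minus the mean log2 CPM of the 4 Vehicle samples, blue for lower. Blue fills the 4 AG636 columns in most rows, is palest in AG636 sample 4, and is nearly absent in the rows of Gnl3l and Nvl.

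The members include 2 pairs of paralogs, Gnl3 with Gnl3l and Rrp1b with Rrp1, in which 1 gene was called and the other was not. Each pair is described by the log2 ratio of the counts of both genes in the same sample, in which library size cancels, with no test, since the pairs were chosen for this difference in the same samples. The ratio of Gnl3 to Gnl3l was 2.80 ± 0.085 in Vehicle and 1.74 ± 0.131 in AG636 (mean ± SD on the log2 scale, n = 4), a difference of −1.07. That of Rrp1b to Rrp1 was −0.86 ± 0.079 in Vehicle and −1.28 ± 0.159 in AG636, a difference of −0.41. In each pair, the ratio in every AG636 sample was below that in every Vehicle sample.

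**Figure D3:**
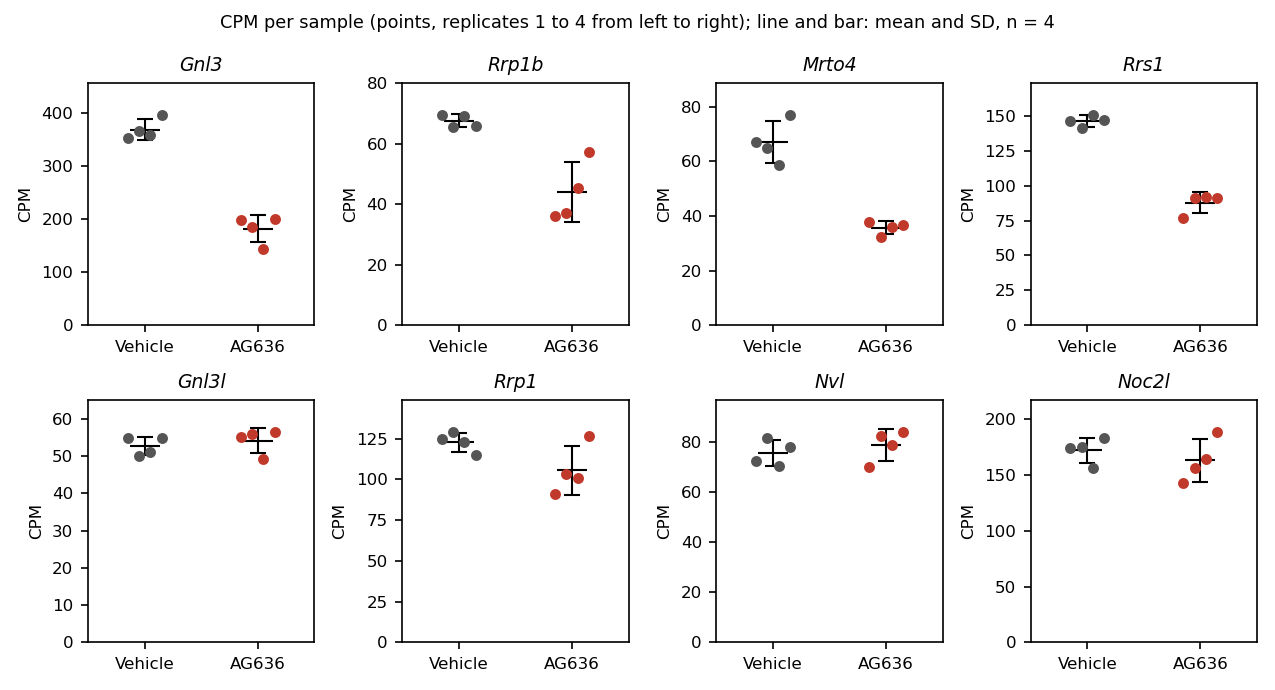
CPM of 8 members in each sample (points, linear axes from 0, line and bar are mean and SD, n = 4), with called members in the upper row, members that were not called in the lower row and the paralogs above each other in the first 2 columns. Gnl3 falls from 353 to 397 CPM in Vehicle to 145 to 200 CPM in AG636, while the points of Gnl3l overlap.

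Exons of 8 members share bases with a gene on the other strand, and whether counting used strand was not stated. Mak16 shares 882 bases with Tti2 (5321 counts for Mak16 and 664 for Tti2 over all samples), Noc2l 598 with Samd11 (8767 and 619), Tex10 226 with Invs (2467 and 480), Eif6 138 with Gm16098 (4160 and 4), Wdr12 61 with Carf (5941 and 693), Bop1 50 with Mroh1 (1843 and 2939), Nle1 34 with Fndc8 (901 and 19) and Gnl3 15 with Pbrm1 (14450 and 24844). The part of these neighbours in the members' counts was not tested. Gnl3 also hosts Snord19 and Snord69, whose own rows held 0 counts.

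The members were set beside other lists of the pathway in the same fit, by counts and medians alone. A further 36 genes of large subunit assembly, among them export, recycling and chaperone factors, gave 35 tested, of which 16 were called lower (45.7%, median log2 fold change −0.35). The 2 with the smallest p were Pa2g4, a factor at the exit tunnel, with 623, 591, 580.4 and 610.4 CPM in Vehicle and 285, 315, 365 and 410.2 CPM in AG636 (log2 fold change −0.82, SE 0.11, adjusted p = 0.00218), and Grwd1, a chaperone of a ribosomal protein, with 44.4, 39.5, 49.5 and 46.1 CPM in Vehicle and 20.2, 16.3, 15.3 and 29.3 CPM in AG636 (log2 fold change −1.17, SE 0.18, adjusted p = 0.00387). Of 56 small subunit assembly factors, all tested, 36 were called lower (64.3%, median −0.45), led by Tsr1 (log2 fold change −1.12, SE 0.09, adjusted p = 0.00048) and Imp4 (log2 fold change −0.74, SE 0.08, adjusted p = 0.00149). Of 14 genes of RNA polymerase I, which makes the precursor RNA, 6 were called lower (42.9%, against 8.49% of all genes tested, median −0.48). Cd3eap (log2 fold change −1.07, SE 0.16, adjusted p = 0.00318) and Polr1d (log2 fold change −0.49, SE 0.09, adjusted p = 0.00777) had the smallest p. In these 3 lists limma-voom, edgeR and DESeq2 each called 0 genes higher, and 0 had a positive value with an unadjusted limma p under 0.05.

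The ribosomal proteins of the large subunit, which the factors assemble, gave other counts. Of 49 genes 48 were tested, 2 were called lower, Rpl13a (log2 fold change −0.55, SE 0.10, adjusted p = 0.00627) and Rpl12 (log2 fold change −0.49, SE 0.13, adjusted p = 0.0291), a share of 4.17% with a median of −0.10, while 9 had an unadjusted p under 0.05, each with a negative value (18.8%, against 17.0% of all genes tested). Their counts can be split with pseudogene copies, and whether this occurred here was not tested. edgeR and DESeq2 also called 2 of the 48 lower and 0 higher. The difference between the lists was not tested. Of 24 proliferation genes 4 were called lower (16.7%, against 8.49% of all genes tested) and 6 higher (against 5.47% of all genes tested), with a median of 0.15. Mcm5 (log2 fold change −0.66, SE 0.11, adjusted p = 0.00469) and Cenpf (log2 fold change 0.51, SE 0.09, adjusted p = 0.00544) had the smallest p.

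**Figure D4:**
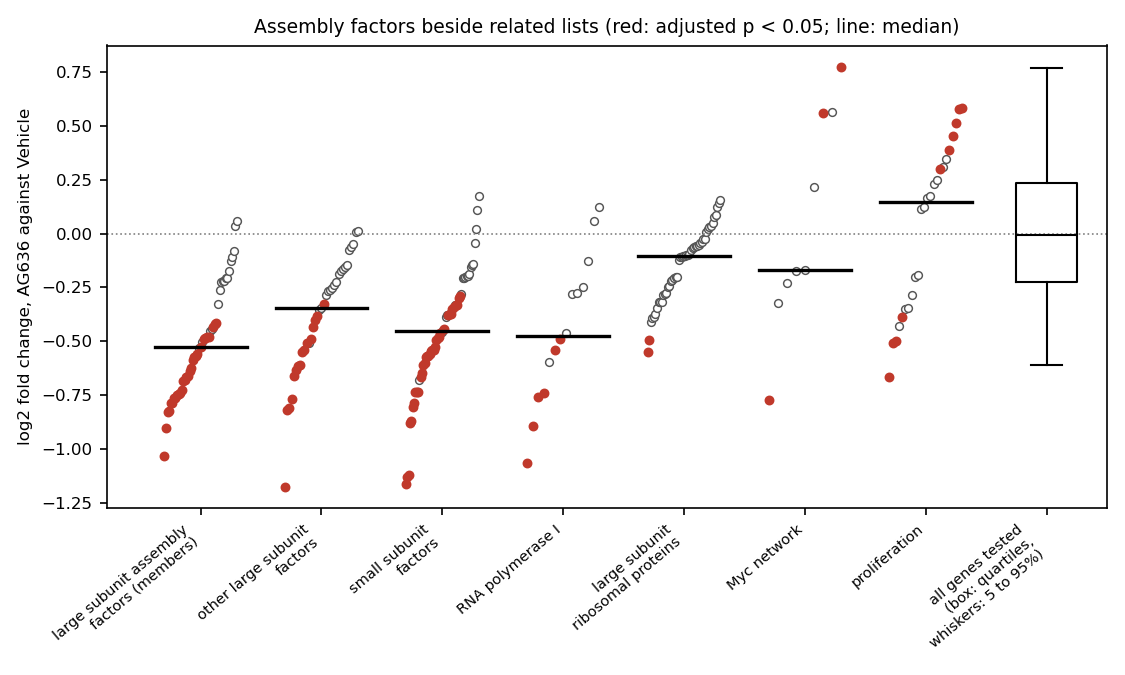
Log2 fold change of AG636 against Vehicle (y axis) for every tested gene of 7 lists (points, sorted within a list, red where called, black line at the median) beside all 10911 genes tested (box of quartiles, whiskers from the 5th to the 95th percentile). The medians are −0.53 for the 47 members, −0.35 for other large subunit factors, −0.45 for small subunit factors and −0.10 for large subunit ribosomal proteins.

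Myc, the transcription factor with known targets in this pathway, had 119, 80.7, 108 and 82.00 CPM in Vehicle samples 1 to 4 and 61.4, 60.7, 46.1 and 58.1 CPM in AG636 samples 1 to 4 (log2 fold change −0.77, SE 0.15, adjusted p = 0.00867), without overlap between the groups. The study, by contrast, describes Myc among transcripts of short half-life as unaffected by AG636, in a statement that names no leukaemia model. For the protein, it reports lower MYC after AG636 in cultured cells of another of its leukaemia models. Mxd1, which competes with Myc for its partner Max, had 20.4, 25.5, 20.6 and 24.2 CPM in Vehicle and 34.2, 44.1, 34.6 and 42.5 CPM in AG636 (log2 fold change 0.77, SE 0.13, adjusted p = 0.00541) and rose. Of 11 genes of the Myc network 9 were tested, and 1 was called lower (11.1%, against 8.49% of all genes tested) and 2 higher (against 5.47%). The part of Myc in the members' levels was not tested.

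The split of calls by direction held for the members under the scaling that moved it most for all genes. With library size alone, 26 members were called lower and 0 higher, while over all genes 571 were lower and 918 higher, in place of 926 and 597 with TMM factors.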

How the data were processed

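The 8 samples, 4 Vehicle and 4 AG636, were grouped by their labels. Libraries came from the QuantSeq 3′ mRNA kit, which reads transcript ends, so that counts were not divided by gene length. No test compared levels between different genes. The authors deposited raw read counts per gene: per the study's methods and processing notes, reads were trimmed with cutadapt, aligned to mm10 (GRCm38) with HISAT2 and counted with featureCounts. The tool versions in these sources differ, and the use of strand and the handling of reads with several matches are not given in the sources used here, so that paralogs and overlapping genes are uncertain.

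Counts of all 54838 genes were filtered (filterByExpr defaults, minimum count 10), scaled by TMM factors (edgeR 4.0.16) and fitted with voom and moderated tests in limma 3.58.1 under R 4.3.3, two-sided, with Benjamini-Hochberg adjustment over the 10911 genes tested and a threshold of 0.05. CPM per sample used TMM-scaled library sizes, and sums of marker genes used total counts. SE and intervals are of the log2 fold change. The fitting steps were tested on simulated data. Alternatives were edgeR's quasi-likelihood test, DESeq2 1.42.0, sample weights, other scalings, other filters, without mitochondrial genes, with the replicate number as a block, and without each sample.

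A count of 3 corresponds to 0.419 to 0.490 CPM, a floor that covers counting error only. No sample column was left out. The 47 members, their 9 role groups and the other lists were chosen with earlier results of these data known. Every member was named, with each sample's CPM where called or, in a role group with none called, for the smallest p, and from each other list the 2 genes with the smallest p and Myc. In limma, 38 members had an unadjusted p under 0.05, 0 of them higher. Promoter windows, from RefSeq on GRCm38.p6, were matched by symbol for 40 members. Mak16, Gnl2, Bop1, Rpf1, Gnl3l, Rrs1 and Eif6 had none. Protein sequences were not used here.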

Additional observations from a re-analysis of the deposited data

Results flagged for a closer look

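Within the 2 groups of 4, each of the 47 members was screened for 1 sample that stood apart from the other 3 by Dixon's ratio. Of 94 groups of values 5 were found, and chance alone gives about 1 in 20 (4.7 of 94). Bop1 in Vehicle sample 4 stood at 45.8 CPM, against 38.4 to 39.2 CPM in the other 3 samples. Gnl2 in Vehicle sample 4 stood at 104.8 CPM, against 118 to 120.1 CPM. Ddx24 in Vehicle sample 3 stood at 252 CPM, against 271 to 274 CPM. Rrs1 in AG636 sample 1 stood at 76.7 CPM, against 91.5 to 91.6 CPM. Nmd3 in Vehicle sample 1 stood at 45.2 CPM, against 39.00 to 39.96 CPM. Of these genes Rrs1 was called, and its call held without AG636 sample 1.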

How the results depend on the processing

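Over 17 alternatives, 25 to 31 members were called lower and 0 higher in each, 45 values stayed negative, and the median log2 fold change lay between −0.55 and −0.46. Of the 30 called members, 25 were called in every alternative at the same threshold. Ddx51, Brix1, Rpf2, Surf6 and Lyar were not, and Bop1, Nle1 and Rrp1 were called in some. Without 1 sample at a time, 25 to 31 members and 688 to 1706 of all genes were called, with 798, 918, 688 and 1010 genes without Vehicle sample 1, 2, 3 and 4, in place of 1523. At an adjusted p under 0.01, 23 members and 435 genes were called. Library size alone changed the split of all calls to 918 higher and 571 lower, from 597 and 926, and the median of all genes to 0.064. With no filter 1202 genes were called, and with DESeq2 1961. The replicate block gave 1446 genes and 31 members. Deviations of same-numbered samples from their group means correlated at −0.14, 0.014, 0.20 and 0.14. AG636 samples 3 and 4 correlated best with the Vehicle sample of the same number, and AG636 samples 1 and 2 with Vehicle sample 4 (0.25 and 0.024). With 4 samples a group, these values cannot decide whether the replicate numbers pair the samples. The widest SE was that of Wdr74, which had 245 counts over all samples, and whether depth set it was not tested.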
